A study of Mus musculus with 4 samples.

Results

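The genes of the urea cycle and of ammonia handling were followed in liver RNA of 2 groups, control and liver-specific ROCK1 knockout (KO) mice. ROCK1 is a kinase that drives the contraction of actomyosin. They are Nags, Cps1, Otc, Ass1, Asl and Arg1 of the cycle, and Gls2 and Glul, which release and capture ammonia around it. They were chosen by name, with earlier results of these data known. Every probe whose platform gene symbol is one of these 8 was taken. This gave 10 probes for 7 genes, out of 25697 probes and 16593 genes with a symbol. No probe carried the symbol Gls2, the liver glutaminase, and that gene was not analysed here. The RNA was read on Illumina bead arrays of 1 colour, 2 for control and 2 for ROCK1 KO liver. Both groups had normal chow without restriction for 16 weeks, under 14 h of light and 10 h of dark. The sources used here do not give the strain, the age, the promoter that drives the deletion or the deleted part of the gene. Nor do the labels say that the 2 arrays of a group came from separate animals. The spread behind each p-value is that between arrays of a group, which may be technical. The limma fit used here draws the spread of each probe towards that of probes of like intensity.

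The liver turns ammonia, which arises when amino acids are broken down, into urea. Nags makes N-acetylglutamate, the activator that Cps1 needs to join ammonia and bicarbonate into carbamoyl phosphate in mitochondria. Otc passes this group to ornithine, giving citrulline, and in the cytosol Ass1 and Asl add the nitrogen of aspartate and release arginine. Arg1 then splits off urea and returns ornithine. The cycle is strongest in hepatocytes around the portal vein, whereas Glul, glutamine synthetase, is restricted to the hepatocytes that border the central vein and captures the ammonia that remains.

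Of the 7 genes measured, Ass1 rose in KO liver, Otc and Glul fell, and Nags, Cps1, Asl and Arg1 were not called. A probe is called at a Benjamini-Hochberg adjusted p under 0.05 in a limma fit over all probes, and a gene is read by its brightest probe. The share of all genes called by the same rule was 4.2% higher and 4.63% lower, together 8.84%. Over all probes the shares were 3.69% higher and 4.32% lower, together 8.02%. All 7 genes lay above the background limit (a log2 value of 7.84) on all 4 arrays. Among genes above that limit on at least 2 arrays, 8.34% were called higher and 9.99% lower, together 18.3%. The median difference of the 7 genes was 0.33 on the log2 scale, against 0.03 over the genes above the limit. Levels are given below as log2 of the quantile-normalised intensity plus 16, and a difference is KO minus control on that scale.

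The sequence just before the transcription start of the 3 called genes is shown because these are the genes on which the results turn, 1 higher and 2 lower in KO. RefSeq's promoter table (GRCm38.p6) held 4 of the 7 measured genes, these and Nags. Each line gives the 250 bases before the start, on the plus strand, and capitals mark matches to the motifs searched.
Ass1, chr2:31470020-31470269: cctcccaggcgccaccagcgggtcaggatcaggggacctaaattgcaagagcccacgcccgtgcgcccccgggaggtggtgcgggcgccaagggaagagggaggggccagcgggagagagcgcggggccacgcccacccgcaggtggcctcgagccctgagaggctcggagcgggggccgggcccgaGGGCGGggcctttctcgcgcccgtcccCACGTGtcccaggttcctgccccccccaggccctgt
Otc, chrX:10252055-10252304: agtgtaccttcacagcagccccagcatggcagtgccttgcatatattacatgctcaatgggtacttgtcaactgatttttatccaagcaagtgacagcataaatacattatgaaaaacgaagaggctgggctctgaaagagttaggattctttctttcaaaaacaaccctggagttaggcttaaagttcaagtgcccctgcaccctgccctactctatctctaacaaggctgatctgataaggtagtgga
Glul, chr1:153899679-153899928: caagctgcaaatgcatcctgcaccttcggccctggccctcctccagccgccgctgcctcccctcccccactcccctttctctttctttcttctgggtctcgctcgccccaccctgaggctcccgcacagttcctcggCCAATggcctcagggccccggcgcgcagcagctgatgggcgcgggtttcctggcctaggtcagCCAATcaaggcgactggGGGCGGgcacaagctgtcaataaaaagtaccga

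The windows differed in base composition, with 75.6% G and C in Ass1, 64.8% in Glul and 43.6% in Otc. On both strands, 8 motifs were searched: the NF-Y box CCAAT, the GC box GGGCGG, the E box CACGTG, the TCF/LEF site CTTTGAT, the C/EBP site TTGCNNAA, the TATA box TATAAA, the cAMP response element TGACGTCA and the HNF4 site CAAAGTCCA. Ass1 held 1 GC box, starting 63 bases before the start, and 1 E box at 36 bases. Glul held 2 NF-Y boxes, at 113 and 50 bases, and 1 GC box at 33 bases. None of these letters was found in the Otc window. Of all 32851 promoter windows of the same length, 33.8% held the NF-Y box, 32.7% the GC box and 6.02% the E box. The others were in 3.21% (TCF/LEF), 9.56% (C/EBP), 12.4% (TATA), 1.55% (cAMP response element) and 0.384% (HNF4). No match overlapped another, and a match describes letters only.

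Ass1, argininosuccinate synthase, read 13.45 and 13.85 in control liver and 14.83 and 15.05 in KO liver. Both KO arrays lay above both control arrays by more than the arrays of a group differed from each other. The difference was 1.29 (SE 0.14, 95% interval 0.98 to 1.60, 2.44-fold higher, limma adjusted p = 0.000434). Before normalisation the control arrays had intensities of 11484 and 11438, and the KO arrays of 34091 and 34629. The call held without any 1 of the 4 arrays, with differences from 1.09 to 1.47. Ass1 was read by a single probe (ILMN_1247811).

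Otc, ornithine transcarbamylase, read 9.73 and 10.03 in control and 9.01 and 8.91 in KO on its brightest probe (ILMN_2797725). Both KO arrays were the lower ones, and the groups did not overlap. The difference was -0.92 (SE 0.16, 95% interval -1.26 to -0.58, 1.89-fold lower, limma adjusted p = 0.00454). The intensities fell as well, from 847 and 741 to 572 and 515. The call was lost without control replicate 2 (-0.77, adjusted p = 0.0597) and held without each other array. With the 2 Otc probes averaged the difference was -0.59, still called (adjusted p = 0.0231). The other Otc probe (ILMN_2656248) was not above the background limit on any array, at 7.44 and 7.62 in control and 7.30 and 7.24 in KO, and was not called (-0.27, adjusted p = 0.122).

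Glul, the glutamine synthetase gene, read 9.34 and 8.92 in control and 7.95 and 8.04 in KO. The KO arrays lay just above the background limit of 7.84, and the groups did not overlap. The difference was -1.14 (SE 0.15, 95% interval -1.47 to -0.81, 2.20-fold lower, limma adjusted p = 0.00129). The control intensities, 642 and 348, stood apart from each other, and the KO intensities were 268 and 284. The call held without any 1 of the 4 arrays, with differences from -1.37 to -0.89. In bulk liver, fewer cells of a type and less RNA per cell cannot be told apart, which bears on a gene of so narrow a zone.

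Background differed between the groups and bears most on dim probes such as those of Glul and Otc. The most frequent intensity on the control arrays was 127 and 123.5, against 179.3 and 179.6 on the KO arrays. With normexp background correction before quantile normalisation the Glul difference was -1.43 and that of Otc -1.04, each larger than without it. The Ass1 difference was 1.29 on both scales. In the authors' deposited log2 values the same fit gave 1.34 for Ass1, -0.96 for Otc and -1.18 for Glul, all called.

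**Figure D1:**
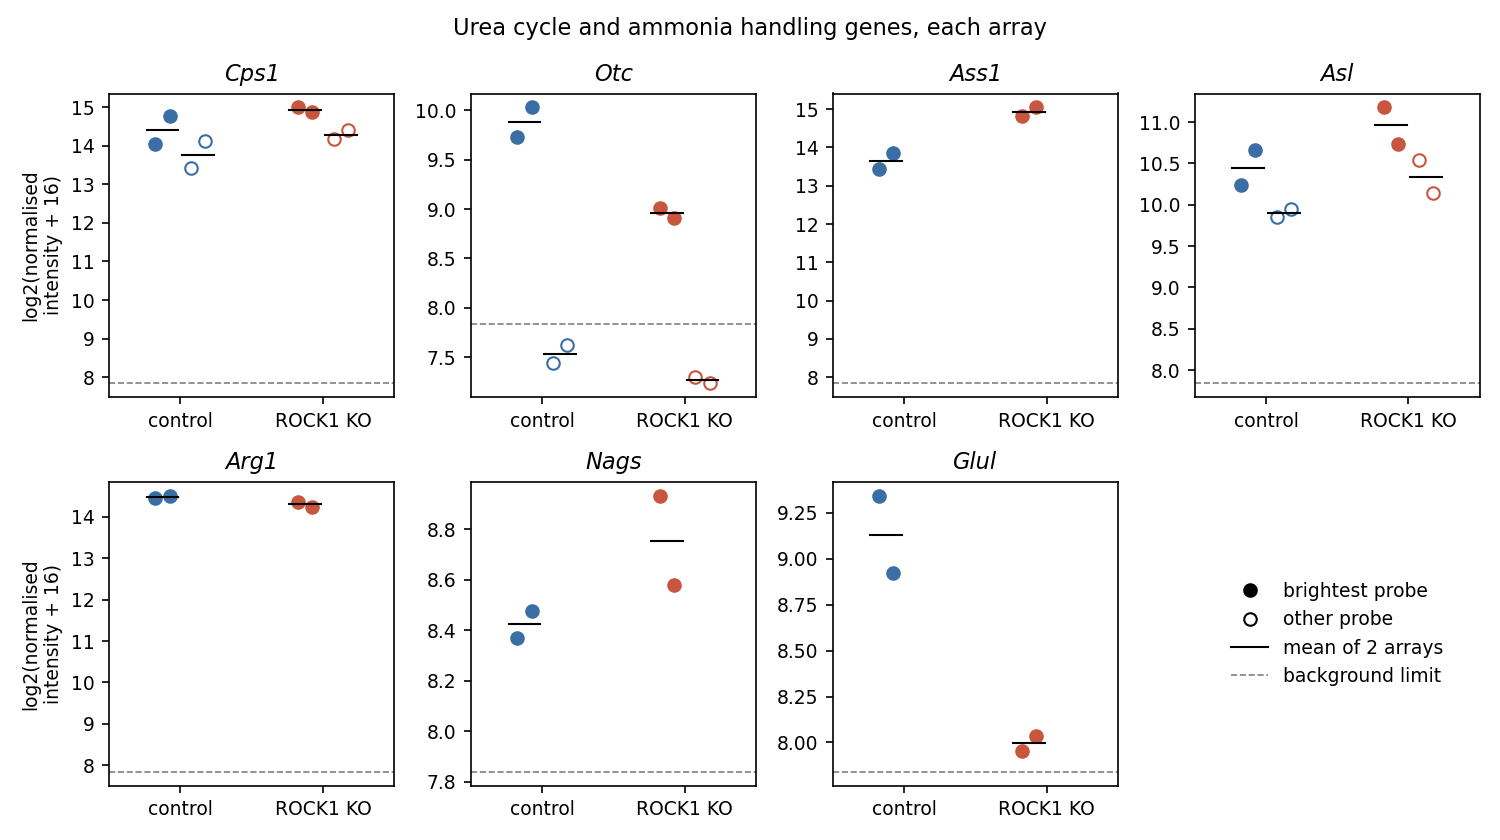
Values of the 7 measured genes on each array, as log2(quantile-normalised intensity + 16), with a separate vertical scale per gene. Filled points are the brightest probe, open points any other probe, bars the mean of 2 arrays and the dashed line the background limit of 7.84; the KO arrays lie above control for Ass1 and below it for Otc and Glul, and the other Otc probe lies under the limit.

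Nags, which makes the activator of Cps1, and Cps1, which brings ammonia into the cycle, were not called. Nags read 8.37 and 8.48 in control and 8.93 and 8.58 in KO (0.33, SE 0.14, limma adjusted p = 0.204). Its KO arrays differed from each other by more than the lower of them differed from control. The Nags difference was 0.15 without KO replicate 1 and 0.52 without KO replicate 2, not called in either (adjusted p of 0.673 and 0.0745). Cps1 read 14.05 and 14.77 in control and 14.99 and 14.87 in KO on its brightest probe (ILMN_1252849), a difference of 0.52 (SE 0.18, 95% interval 0.12 to 0.91, limma adjusted p = 0.110). Control replicate 1 was the low array, and control replicate 2 lay close to the KO arrays. The other Cps1 probe (ILMN_2913078) gave nearly the same difference (0.52, adjusted p = 0.122) from 13.42 and 14.11 in control and 14.17 and 14.41 in KO. Cps1 was 0.86 and called without control replicate 2 (adjusted p = 0.00728), and 0.16 and not called without control replicate 1 (0.458). With the replicate number as a block, Cps1 was called (adjusted p = 0.00139), and the labels do not state a pairing.

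Asl, argininosuccinate lyase, acts directly after Ass1 and read 10.24 and 10.66 in control and 11.18 and 10.74 in KO on its brightest probe (ILMN_2670542). The groups did not overlap, but KO replicate 2 lay close to control replicate 2. The difference was 0.51 (SE 0.20, 95% interval 0.08 to 0.94, limma adjusted p = 0.151), and 0.44 (adjusted p = 0.156) on the other Asl probe (ILMN_1254257). Asl was called at 0.58 (adjusted p = 0.0134) with normexp and 75th percentile scaling. Without control replicate 1 or KO replicate 1 it read 0.30 both times, and without control replicate 2 or KO replicate 2 it read 0.72 and 0.73, not called in any of the 4 fits.

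Arg1, the liver arginase, read 14.45 and 14.51 in control and 14.36 and 14.25 in KO. The difference was -0.18 (SE 0.10, 95% interval -0.40 to 0.05, limma adjusted p = 0.353), so that changes of the size seen for Ass1, Otc or Glul lie outside its interval. Its intensities overlapped between the groups, with 22735 and 18211 for control against 24661 and 20465 for KO. After normalisation the KO arrays were above control in 4 of the 7 genes and below it in 3. No gene of the 7 had overlapping groups, where 65.5% of genes above background had none either.

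**Figure D2:**
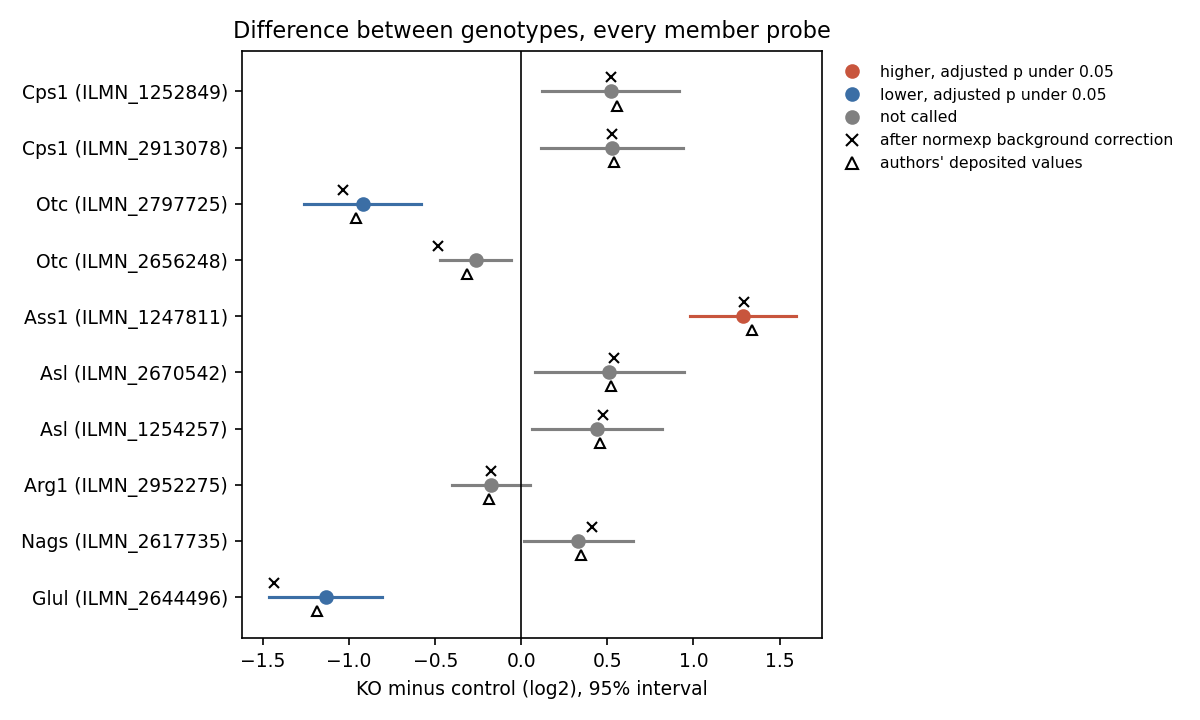
KO minus control on the log2 scale for all 10 member probes, with 95% intervals from limma as lines. Crosses give the difference after normexp background correction and triangles the same fit on the authors' deposited values; Ass1 (1.29) lies to the right of 0, Otc (-0.92) and Glul (-1.14) to the left, and both probes of Cps1 and of Asl between 0.44 and 0.52.

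The 6 cycle genes were set against Glul within each array, with values relative to the control mean. The mean of Nags, Cps1, Otc, Ass1, Asl and Arg1 was -0.17 and 0.17 for control and 0.33 and 0.18 for KO. KO replicate 2 thus lay next to control replicate 2. Glul on the same arrays was 0.21 and -0.21 for control against -1.18 and -1.10 for KO. Cycle mean minus Glul was therefore -0.38 and 0.38 for control against 1.51 and 1.28 for KO, a difference of 1.40 with SDs of 0.54 in control and 0.17 in KO (n = 2). Most of it came from Glul, since the cycle mean differed by 0.26. Within that mean Ass1 weighed most (1.29), Otc went the other way (-0.92), and the remaining genes lay between -0.18 and 0.52. Without control replicate 1 it was 0.98 and without control replicate 2 it was 1.79.

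**Figure D3:**
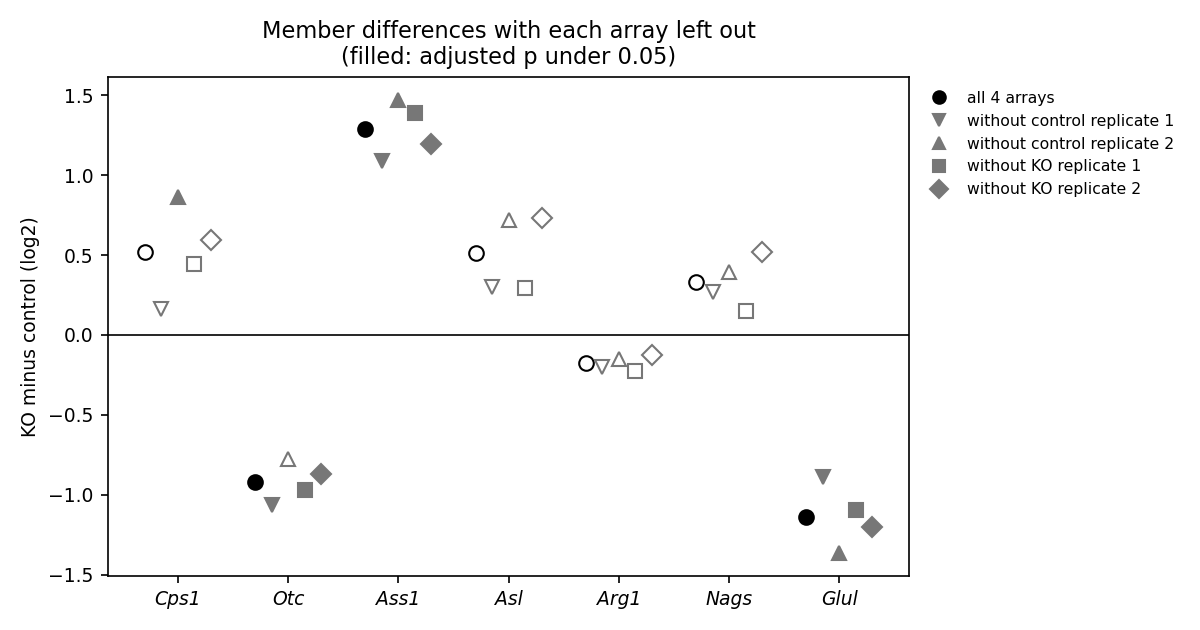
KO minus control on the log2 scale for each measured gene with all 4 arrays (black) and with each array left out (grey), filled where the adjusted p is under 0.05. Ass1 and Glul stay filled throughout, Otc is open without control replicate 2, and Cps1 spans 0.16 to 0.86 with the control array left out.

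Transporters and enzymes next to the cycle were examined as a list of 35 genes, of which 31 were measured. Of these, 3 rose, 1 fell and 27 were not called (median 0.13, against 0.004 over all genes). Above the limit on at least 2 arrays were 22 of them, against shares of 8.34% higher and 9.99% lower among all such genes. Slc25a13, the citrin carrier that exports the aspartate used by Ass1, fell from 9.11 and 9.39 to 8.28 and 8.22 (-0.997, SE 0.14, limma adjusted p = 0.00164). Slc25a12, the related aspartate carrier, differed by 0.03 and was not called (adjusted p = 0.931). Asns, which uses glutamine to make asparagine, was above background on 0 control arrays. It read 9.85 and 8.79 in KO, at least 2.78-fold higher (adjusted p = 0.00241), and its other bright probe was at least 1.31-fold higher. Slc1a4, a neutral amino acid transporter gene, was likewise above background only in KO and at least 1.72-fold higher (adjusted p = 0.00113). Odc1, which turns the ornithine of the cycle into putrescine, rose by 0.77 (adjusted p = 0.0134). Leaving out control replicate 2 ended that call (0.63, adjusted p = 0.121).

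The other genes of that list lay between -0.21 and 0.70 and were not called. Those with the smallest p were Got1 (0.53), the cytosolic aspartate aminotransferase, Slc7a2 (0.70), a cationic amino acid transporter, and Glud1 (0.61), glutamate dehydrogenase. Their adjusted p were 0.0628, 0.0718 and 0.0737. All 3 were called without control replicate 2, at 0.75, 1.07 and 0.88 (adjusted p of 0.0469, 0.0302 and 0.0384). Without control replicate 1 they read 0.30, 0.35 and 0.33 and were not called (0.352, 0.406 and 0.368). The other bright Slc7a2 probe read -0.26 (0.245), the opposite direction. A few more were looked up after their values were seen. Slc25a15, the mitochondrial ornithine carrier, read 0.24 on its brightest probe (adjusted p = 0.344) and rose by 0.71 on its other (0.0291). Slc38a2, a glutamine transporter gene, read 0.08 and, on its other bright probe, -0.91 (0.00711), so its probes disagreed. Slc38a3, the main glutamine transporter of hepatocytes, read 0.09 (adjusted p = 0.829), and Slc1a2, the pericentral glutamate transporter, 0.13 (0.769). Rhbg, the pericentral ammonium transporter, was above the limit on 1 array of each group, and Arg2, the mitochondrial arginase, on 0 arrays.

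Among 39 genes of amino acid catabolism and turnover, 32 were measured, and 5 rose, 6 fell and 21 were not called (median 0.03). Not every step in this list yields glutamate or ammonia. Above the limit on at least 2 arrays were 24 of them. Among all genes above that limit, 8.34% were called higher and 9.99% lower. Those that rose include Oat (0.78), which makes glutamate from ornithine next to the central vein, Bcat2 (1.18), a branched-chain aminotransferase, and Gnmt (0.88), a glycine methyltransferase. Cbs, cystathionine beta-synthase, rose by 0.83, but was not called when control replicate 1 was left out (0.68, adjusted p = 0.0675). Sardh, sarcosine dehydrogenase, rose by 0.80, and its call was lost without either control array or KO replicate 2 (0.79, 0.81 and 0.41, highest adjusted p = 0.192).

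Those that fell include Dmgdh (-1.57), dimethylglycine dehydrogenase, Tdo2 (-1.10), which opens the ring of tryptophan, Uroc1 (-0.92), urocanase of histidine breakdown, and Dld (-0.87), a shared dehydrogenase subunit. Fah (-0.42), of tyrosine breakdown, lost its call without control replicate 2 or KO replicate 1 (-0.33 and -0.37, adjusted p of 0.157 and 0.0858). Prodh2 (-0.73), of hydroxyproline breakdown, also lost its call without control replicate 2 or KO replicate 1 (-0.43 and -0.64, adjusted p of 0.222 and 0.101), and its other probes read -0.07 and 0.07. Bckdhb (-0.57), Aspa (0.31, above background on 0 arrays) and Bckdha (0.48) were nearest to a call (adjusted p of 0.0510, 0.0593 and 0.0707), and Bckdhb was called without KO replicate 2 (-0.71, adjusted p = 0.0397).

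Since the cycle and Glul mark opposite ends of the liver lobule, other genes of both zones were counted. Of 23 measured periportal markers, Etnppl rose (1.26, and 1.39 on its other probe), 4 fell and 18 were not called, with a median of -0.20. Those that fell were Hsd17b6 (-1.97), a steroid dehydrogenase, Pck1 (-1.14), of gluconeogenesis, Uroc1 (-0.92) and Pigr (-0.92), an immunoglobulin receptor. The call of Pigr was lost without either control array or KO replicate 1 (-1.02, -0.81 and -0.48, highest adjusted p = 0.216). Apoa4 (-0.91), Igfals (0.52) and Itih4 (-0.31) were next (adjusted p of 0.0634, 0.0641 and 0.0777), and Apoa4 read -1.42 and was called without control replicate 2 (adjusted p = 0.0112), but read -0.39 without control replicate 1 (0.359). Rida, looked up after its values were seen, was not called on its brightest probe (-0.25). Another Rida probe was called lower (-1.35, limma adjusted p = 0.00129), and further ones read -0.41 and 0.18 and were not called. Beside the rise of Ass1, 1 gene of its zone rose and 4 fell, of 21 above the limit on at least 2 arrays. Among all genes above that limit, 8.34% were called higher and 9.99% lower. The median over all genes was 0.004.

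Of 33 measured pericentral markers, 7 rose, 2 fell and 24 were not called, with a median of 0.10. Above the limit on at least 2 arrays were 27 of them. Among all genes above that limit, 8.34% were called higher and 9.99% lower. Gstm2 (1.84), a glutathione transferase, Cyp2a5 (1.13), a cytochrome P450, Oat (0.78) and Slc1a4 rose and kept their calls without any 1 array. Both Gstm2 and Cyp2a5 have close paralogues, and their probes may also read these, which was not tested. All other probes of both genes were called higher too, at 2.13 and 1.75 for Gstm2 and at 0.63 or more for Cyp2a5. Gulo (0.65), of ascorbate synthesis, lost its call without either control array (0.63 and 0.66, adjusted p of 0.0620 and 0.0514). Axin2 (0.57), a target of Wnt signalling, and Cyp1a2 (0.46) lost theirs without either control array or KO replicate 2 (0.71, 0.42 and 0.45 for Axin2, 0.48, 0.44 and 0.34 for Cyp1a2, highest adjusted p of 0.261 and 0.210). The other Cyp1a2 probe read -0.02.

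The pericentral genes that fell, like Glul, were Slco1b2 (-0.94), an organic anion transporter, and Rgn (-1.05), regucalcin. Slco1b2 lost its call without either control array (-0.97 and -0.92, adjusted p of 0.0733 and 0.0904), and Rgn without control replicate 2 or KO replicate 1 (-0.71 and -0.85, 0.109 and 0.0532). Cyp2c50 (-0.27), Cyp2e1 (-0.21) and Avpr1a (-0.39) were next (adjusted p of 0.138, 0.157 and 0.186), and the other Cyp2c50 probe fell (-0.85, adjusted p = 0.00764). Lgr5 and Tbx3, markers of the rim of cells that hold Glul, looked up after their values were seen, read -0.03 and -0.15 and were not called (adjusted p of 0.932 and 0.715). Lgr5 lay just above the background limit of 7.84, at 8.18 and 8.06 in control and 7.95 and 8.25 in KO. A fall of the size of that of Glul could hardly show at that level.

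Of 18 measured regulators of these genes, 1 rose, 3 fell and 14 were not called (median -0.09). Above the limit on at least 2 arrays were 15 of them, against shares of 8.34% higher and 9.99% lower among all such genes. Cebpa, a liver transcription factor that acts on urea cycle genes, rose from 8.87 and 8.99 to 9.80 and 10.09 (1.02, SE 0.15, limma adjusted p = 0.00246). Ctnnb1, beta-catenin, on whose signalling Glul depends, fell from 12.95 and 12.93 to 12.03 and 11.93 (-0.96, SE 0.14, limma adjusted p = 0.00185), and its other probe was not called (-0.47, adjusted p = 0.0996). Gcgr, the glucagon receptor, fell (-0.97), but not past the threshold when control replicate 1 was left out (-0.84, adjusted p = 0.0562). Atf4, of the amino acid response, fell (-1.20, adjusted p = 0.0495) with KO arrays far apart at 8.18 and 9.60. Its call was lost without either control array or KO replicate 1 (-1.21, -1.18 and -0.48, highest adjusted p = 0.218), and without KO replicate 2 it read -1.92. Hnf4a read -0.62 (adjusted p = 0.0540) and was called without KO replicate 2 (-0.88, 0.00669) but not without KO replicate 1 (-0.36, 0.242), while Sirt3 (-0.42) and Ppargc1a (-0.25) were not called (0.120 and 0.279).

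**Figure D4:**
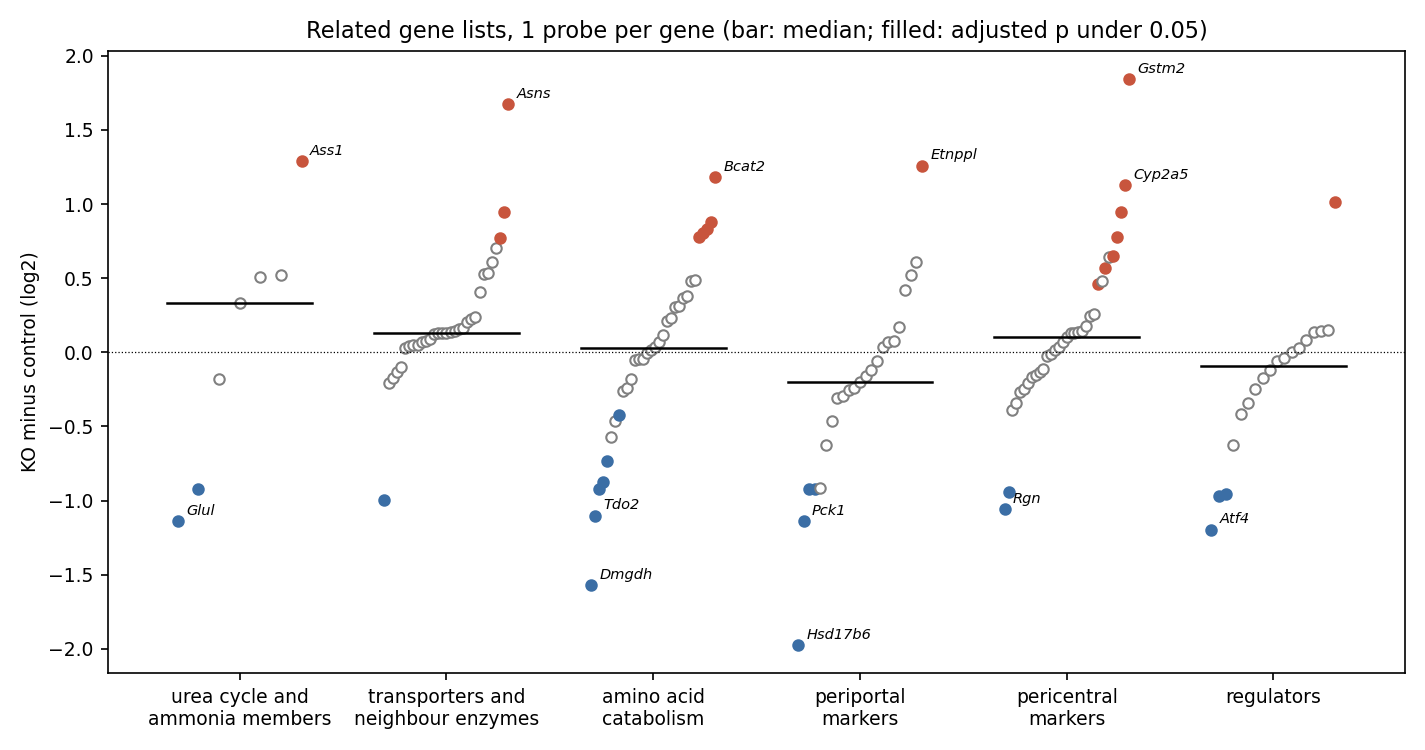
KO minus control on the log2 scale for each measured gene of the cycle and of 5 related lists, sorted within a list, with the median as a bar. Filled points have an adjusted p under 0.05, red higher and blue lower in KO, and the names shown are the called genes farthest from 0; the medians lie between -0.20 and 0.33.

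The genes whose values ran closest to each called gene were found by the distance over the 4 arrays, after centring on the control mean, among 6922 genes above background. For Ass1 they were Hapln4, the glutathione transferase gene Gstm6 and the spermidine synthase gene Srm at distances of 0.12, 0.22 and 0.25, with differences of 1.25, 1.18 and 1.11. For Otc they were Mfsd3, Stat3, a transcription factor of cytokine signalling, and Mycl at 0.02, 0.08 and 0.10, with differences of -0.92, -0.88 and -0.93, and the call of Stat3 was lost without control replicate 2 (-0.74, adjusted p = 0.0951). For Glul they were Ankrd46, the malonyl-CoA decarboxylase gene Mlycd and the protease gene Adam9 at 0.09, 0.10 and 0.11, with differences of -1.18, -1.10 and -1.10. With 4 arrays, a short distance says little beyond a similar size of difference.

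Rock1, the targeted gene, read 8.51 and 8.51 in control and 8.07 and 7.91 in KO (-0.53, limma adjusted p = 0.0181). Its call was lost without either control array or KO replicate 2 (-0.50, -0.54 and -0.46, highest adjusted p = 0.0995), and its intensities overlapped between the groups.

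Markers of liver cell types were measured on the same arrays. Their counts stand beside shares of 8.34% called higher and 9.99% lower among all genes above background on at least 2 arrays. Of 13 hepatocyte markers, 10 were above background, Fga rose (0.45), Serpina1c fell (-1.53) and 11 were not called. Trf, Apoc3 and the brightest Ahsg probe had intensities of 55755 to 66986, near the highest on the arrays (64763 to 69738). Differences of probes that bright may be understated, which was not tested. The other bright Ahsg probe fell (-0.97), while its brightest read -0.04. The probes of Alb, Tat and Fgb, which liver expresses strongly, were above the limit on 1, 0 and 0 of the arrays. Of 10 endothelial markers, 0 rose and 2 fell. Their summed intensity after quantile normalisation was 12947 to 14347 in control against 8547 to 9074 in KO. Sums before normalisation were not used for any cell type. This sum rests mostly on Clec4g, by far the brightest of them (13.29 and 13.08 in control, 12.38 and 12.12 in KO). Only Dnase1l3 read higher in KO (0.52, limma adjusted p = 0.0526, not called), and Lyve1 and Kdr were below the limit on all arrays. Clec4g (-0.94) kept its call without any 1 array, whereas Fcgr2b (-0.76) lost it without either control array (-0.77 and -0.75, adjusted p of 0.0617 and 0.0748) and read -0.35 on its other probe (0.0861).

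Of 10 Kupffer cell and macrophage markers, 0 rose and 2 fell on the brightest probe. Their sums after quantile normalisation were 5385 to 6336 in control against 4883 to 5055 in KO, with Marco and Cd5l below the limit on all arrays. Before normalisation the intensities of Adgre1 and Clec4f, the genes that fell, overlapped between the groups. Adgre1 (-0.84) lost its call without control replicate 1 or KO replicate 1 (-0.51 and -0.65, adjusted p of 0.170 and 0.115). Clec4f (-0.63) lost it without either control array or KO replicate 2 (-0.54, -0.72 and -0.54, highest adjusted p = 0.173). Their other probes read -0.30 and -0.12 and were not called (0.116 and 0.530), and the other bright Lyz2 probe fell (-1.42, 0.000359; brightest probe -0.09).

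Of 11 stellate cell and fibroblast markers, Col3a1 was at least 1.19-fold lower and 10 were not called. Their sums after quantile normalisation were 12650 to 14913 in control against 11624 to 12039 in KO. Dcn, the brightest of them (13.09 and 12.81 in control, 12.57 and 12.50 in KO), weighs most in these sums. Its intensities before normalisation overlapped between the groups. Of the 11, 6 were above background on at least 2 arrays, and Col1a2, Col1a1 and Hand2 were below the limit on all arrays. Col3a1 was not called when either replicate 1 was left out, control or KO (-0.44 and -0.53, adjusted p of 0.0912 and 0.0529), and the other bright Dcn probe fell (-1.13; brightest probe -0.42). Of 4 cholangiocyte markers, Sox9 alone was above background on at least 2 arrays. It rose (0.61), a call that did not hold without either control array or KO replicate 2 (0.59, 0.61 and 0.49, highest adjusted p = 0.0996). Of 10 lymphocyte markers, 0 were above background on at least 2 arrays, although Ms4a1 was called (0.47), which it was not without control replicate 1 (0.38, adjusted p = 0.115). Of 10 kidney and pancreas markers, Amy2a5 fell (-1.16). The part of these cells in the differences of Ass1, Otc and Glul was not tested.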

How the data were processed

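The authors deposited 1 linear intensity per probe and array, and per the file headers no detection p-value goes with it. The authors' deposited log2 values rank the probes of each array as the intensities do (Spearman correlation 1), and the sources used here do not say how they were made. Intensities were quantile-normalised, 16 was added and log2 taken, with background left in, which shrinks differences of dim probes. Differences were tested in R 4.3.3 with limma 3.58.1 (lmFit, eBayes with an intensity trend), two-sided, without a block, adjusted over all 25697 probes. The fit was also run on simulated arrays with independent noise. These hold no array effects, so that run says nothing of such effects in the real arrays. Array medians were 136.9 to 206.3, and precision is limited by how few arrays there are. The background limit is 3 SD above the mode of the log2 values. Where a group was on no array above it, folds are bounds against the lowest value above it. Symbols came from the platform annotation, with 1719 probes unnamed. All members were named, and from each of the 5 lists on ammonia, amino acids, zones and regulators every called gene and the 3 others of smallest p. Called cell type markers were named after their values were seen. For each called member, the 3 nearest genes were named. Members and lists were chosen with earlier results of these data known. Same-numbered arrays did not deviate together (correlation -0.06), so the block is an alternative only. Figures used matplotlib 3.10.9.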

Additional observations from a re-analysis of the deposited data

How the results depend on the processing

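Over 15 alternatives (offsets of 1 and 50, normexp, 75th percentile scaling alone and after normexp, the authors' values, a background filter, 2 other variance models, the replicate block, averaging a gene's probes and each array left out), Ass1 and Glul kept their direction and call, and no measured member changed direction. Normexp with 75th percentile scaling called 2 members higher, Asl (0.58) besides Ass1. The replicate block, for which the labels give no pairing, called 1440 probes higher and 2 members higher, Cps1 (0.52) besides Ass1, and it changed no other member's call. With 1 array left out, 294 to 799 probes were called higher and 488 to 880 lower, against 949 and 1111 with all 4, and 1 to 2 members were called in each direction. Differences then ran from 0.16 to 0.86 for Cps1, from -1.06 to -0.77 for Otc, from 0.30 to 0.73 for Asl, from 0.15 to 0.52 for Nags and from 0.98 to 1.79 for the cycle mean minus Glul. In the same fits, which were chosen for the related lists after seeing the data, 3 to 6 neighbours of the cycle, 3 to 6 catabolic genes, 4 to 8 pericentral and 1 to 2 periportal markers were called higher. In them 0 to 2 pericentral markers and 1 to 4 regulators were called lower. Of 40 called genes from the 5 related lists, with Rock1 and the nearest genes, 25 kept their call in all 4 fits, as did 4 of the 10 called cell type markers. Averaging its probes gave -0.59 for Otc. Over all probes, the mean of a gene's probes gives no count. Dim signal limits Glul and the other Otc probe most.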
